A study of Homo sapiens with 43 samples.

Results

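The semaphorin, ephrin, netrin and slit guidance genes are described here in H2087 and HCC1954 cells and in their derivatives. The members are the genes with symbols SEMA3 to SEMA7 plus a letter, PLXNA to PLXND plus a digit, NRP1, NRP2, UNC5A to UNC5D, NTN plus a digit, SLIT1 to SLIT3, ROBO1 to ROBO4, EPHA or EPHB plus digits, and EFNA or EFNB plus a digit. Each line's tables hold 68 such symbols, and a gene was kept in a line when its mean over all libraries of that line was at least 10. That left 53 of 12535 kept genes in H2087 and 59 of 15397 in HCC1954. A total of 52 genes were kept in both lines and 60 in at least 1. The 8 kept in neither were EPHA3, EPHA5, EPHA6, EPHA7, EPHA8, NTN3, SEMA6D and UNC5D. ROBO2 was kept in H2087 alone, and EFNA2, NTN5, ROBO1, SEMA3D, SLIT2, SLIT3 and UNC5C in HCC1954 alone.

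H2087 is an established lung adenocarcinoma line and HCC1954 an established breast cancer line. Both were sequenced as parental cells and as latency-competent cell derivatives (LCC), which the labels describe as derivatives from a BLI-negative organ. Subconfluent cells were held for 48 h in a medium rich in mitogens (MRM) or in one low in them (MLM), and total RNA was taken. Per medium, H2087 has 2 parental libraries and 6 LCC libraries, 1 for each of LCC1 to LCC6. Per medium, HCC1954 has 3 parental libraries and 4 LCC libraries, namely 2 each of LCC1 and LCC2. The labels do not say whether a derivative is a clone or whether libraries come from separate cultures, and a p-value here therefore reflects only how much these particular libraries vary, which may be technical variation.

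Guidance cues are secreted or membrane-bound ligands that attract or repel growing axons and migrating cells, and epithelial and tumour cells use the same ligands and receptors in adhesion, migration and survival. Secreted semaphorins bind neuropilins, which pair with plexins to signal. Membrane semaphorins mostly bind plexins directly. Ephrins bind Eph receptor tyrosine kinases on the neighbouring cell and can signal in both directions. Netrins act through DCC, neogenin and UNC5 receptors, and slits through Robo receptors.

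Values below are the deposited normalized counts, that is reads divided by a size factor that both media of a line share. They compare libraries for 1 gene and not 1 gene with another, since they are not divided by length. A difference is on the log2(value + 1) scale with its standard error (SE) from limma. A gene is called when its Benjamini-Hochberg adjusted p over all kept genes of the line is under 0.05. The words higher and lower refer to called genes.

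Depth was 44.6 to 55.7 M reads in H2087 MLM libraries, 12.1 to 20.8 M in H2087 MRM libraries, 24.9 to 28.1 M in HCC1954 MLM libraries and 28.8 to 44.7 M in HCC1954 MRM libraries. Medium and depth therefore move together in both lines, in opposite directions. All 6 epithelial markers (KRT8, KRT18, KRT19, EPCAM, CDH1 and CLDN4) had a mean of at least 10 in every group of both lines. Their summed level was 274814 to 308331 in the HCC1954 parental libraries of both media and 102445 to 179911 in the LCC libraries, and in H2087 it was 127648 to 133907 in parental and 134755 to 304316 in LCC libraries in MLM, and 111742 to 124317 and 145809 to 415264 in MRM. It thus moves with the LCC contrast in both lines, in opposite directions, and its part in the results was not tested. The 7 fibroblast markers summed to 466 to 640 in parental and 778 to 1117 in LCC libraries of HCC1954. Of these, 1 had a mean of at least 10 in the parental groups, 2 in LCC cells in MLM and 3 in MRM, so few genes carry the sum. Some libraries stood apart from the others of their group. LCC5 and LCC6 of H2087 in MRM differed by a chi-square of 6.75 per degree of freedom over genes, against at least 25.2 for every other pair of derivatives there. Over genes, the deviation of H2087 LCC6 in MRM from its group mean correlated more with LCC5 in MLM (0.487) than with LCC6 in MLM (0.411). In HCC1954 MRM the libraries LCC1 1 and LCC1 2 differed by 118 per degree of freedom, against 2.14 for the LCC2 pair. HCC1954 parental 3 in MLM differed from the other parental libraries by 60.1 and 60.7, against 7.31 between those. No pair agreed within sampling noise. In bulk RNA, fewer cells expressing a gene and less RNA per cell cannot be told apart.

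Promoter sequences are shown for 3 members on which the results turn: NRP2 and SLIT3, which were higher in both media in HCC1954 LCC cells, and SEMA3C, which had the largest difference in H2087. They are from RefSeq, build GRCh38.p14, and run from 250 bases before to 50 after a gene start, 5′ to 3′ on the gene's strand. The table of promoters matched 52 of the 60 members with 78 windows. Capitals mark the GC box GGGCGG, which Sp and KLF factors can bind, on either strand. NRP2 lies on the plus strand at chr2:205682251-205682550, SLIT3 on the minus strand at chr5:169301090-169301389, and SEMA3C on the minus strand with start windows at chr7:80919002-80919301 and chr7:80922340-80922639.
NRP2: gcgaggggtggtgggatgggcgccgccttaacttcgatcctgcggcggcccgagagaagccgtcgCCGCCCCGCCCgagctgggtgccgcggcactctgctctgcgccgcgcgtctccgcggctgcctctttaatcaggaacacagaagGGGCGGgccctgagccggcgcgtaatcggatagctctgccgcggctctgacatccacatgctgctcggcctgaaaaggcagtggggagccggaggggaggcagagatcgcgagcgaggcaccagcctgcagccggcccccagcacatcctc
SLIT3: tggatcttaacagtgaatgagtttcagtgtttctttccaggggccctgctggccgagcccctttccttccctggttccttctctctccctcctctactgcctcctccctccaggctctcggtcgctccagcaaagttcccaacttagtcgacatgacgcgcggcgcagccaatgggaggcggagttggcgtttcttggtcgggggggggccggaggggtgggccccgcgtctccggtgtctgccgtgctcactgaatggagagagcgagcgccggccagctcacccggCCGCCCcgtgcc
SEMA3C, first window: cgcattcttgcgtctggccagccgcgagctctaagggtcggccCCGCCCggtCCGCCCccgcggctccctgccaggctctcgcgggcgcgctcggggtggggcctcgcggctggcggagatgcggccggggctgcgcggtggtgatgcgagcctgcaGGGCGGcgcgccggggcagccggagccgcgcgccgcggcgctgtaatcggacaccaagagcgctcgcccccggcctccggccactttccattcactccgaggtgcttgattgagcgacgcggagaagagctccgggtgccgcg
SEMA3C, second window: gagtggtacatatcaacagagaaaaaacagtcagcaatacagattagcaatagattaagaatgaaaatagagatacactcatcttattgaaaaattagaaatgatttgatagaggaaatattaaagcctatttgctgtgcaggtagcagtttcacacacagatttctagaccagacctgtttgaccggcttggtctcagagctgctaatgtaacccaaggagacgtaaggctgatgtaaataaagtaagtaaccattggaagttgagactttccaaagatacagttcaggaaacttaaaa
The windows hold 33 CG dinucleotides in NRP2, 22 in SLIT3, and 46 and 2 in the SEMA3C windows, against a median of 14 over all 35116 windows of the table and 21 over the members' windows. The GC box was found in 58 of the 78 members' windows (74.4%) and in 45% of all windows. It was found 3 times in NRP2, 1 time in SLIT3, 3 times in the first SEMA3C window and 0 times in the second. The AP-1 site TGANTCA was found in 1 of the members' windows and in 7.71% of all windows, and the E-box CACCTG in 19.2% and 20.6%. Both strands were searched. TGANTCA and CACCTG were found 0 times in the windows printed, so no overlap between different motifs occurs there. In NRP2, neighbouring GC boxes share a base and are marked as a single stretch.

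**Figure D1:**
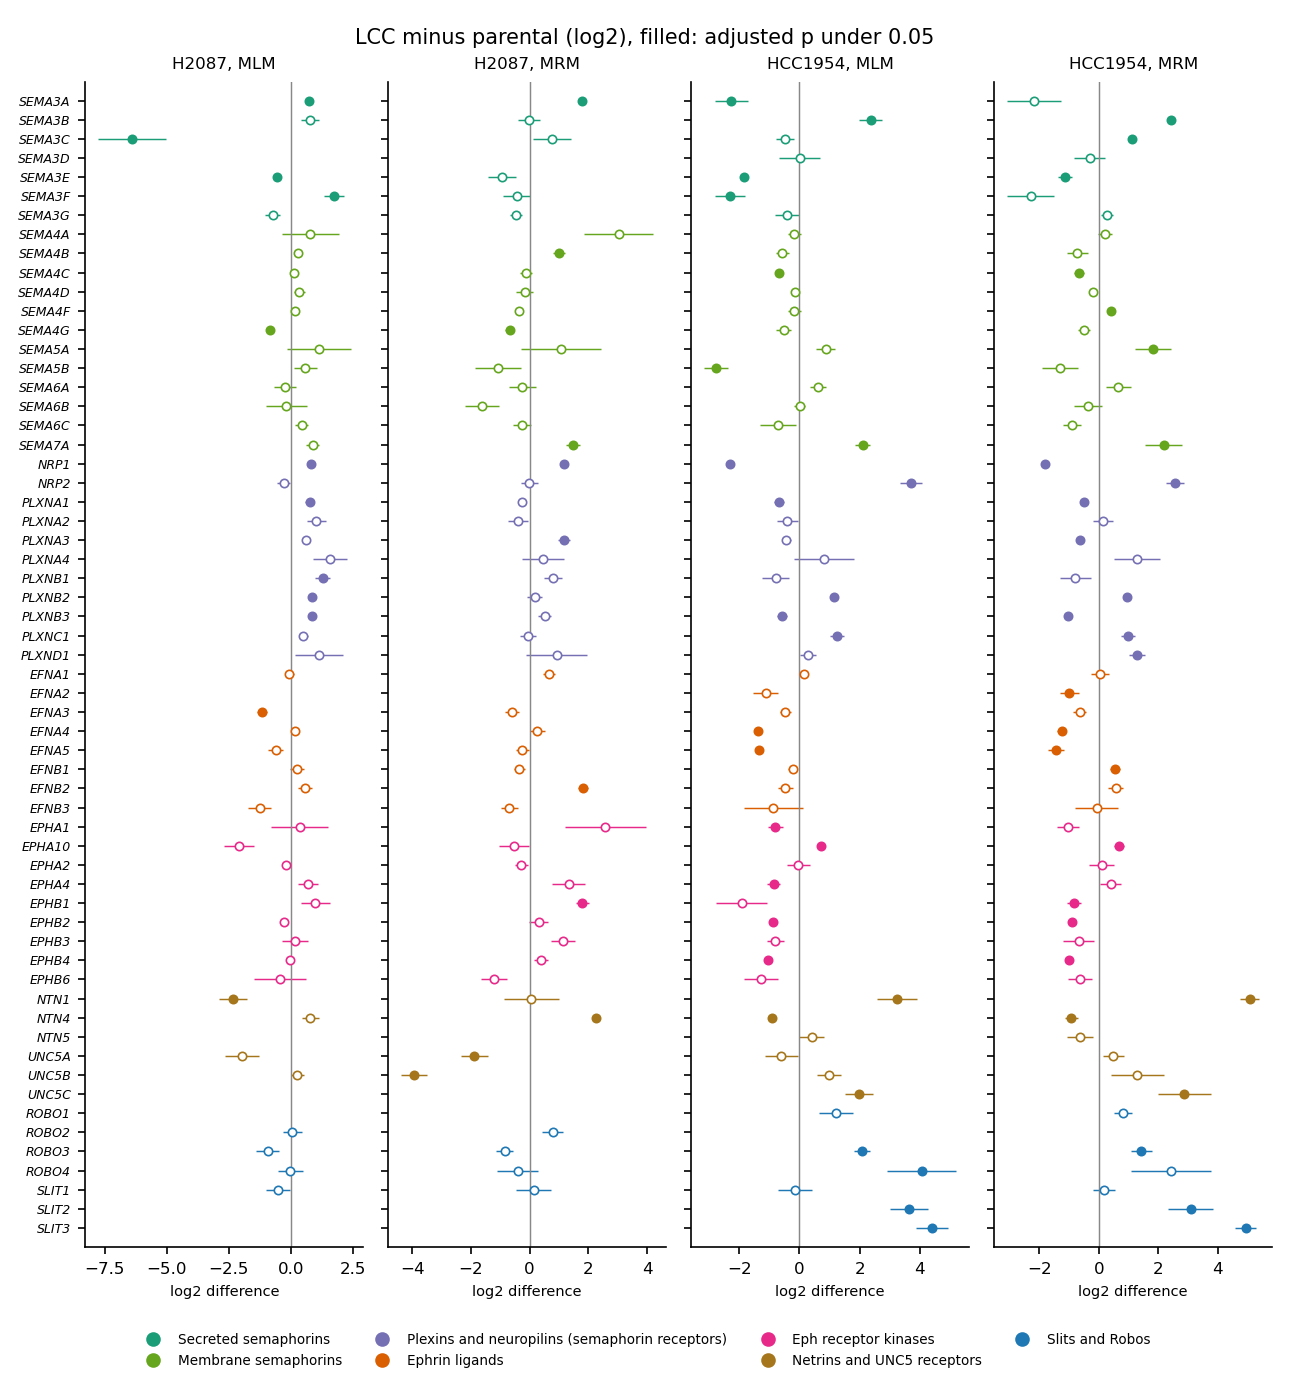
Log2 difference of LCC minus parental (x axis, points with SE bars) for every member (y axis, coloured by role) in each line and medium. Filled points are called at an adjusted p under 0.05: 12 in H2087 MLM, 11 in H2087 MRM, 27 in HCC1954 MLM and 29 in HCC1954 MRM. The x axes differ between panels.

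In H2087 grown in MLM, semaphorin receptors and some of their ligands were higher in the latency-competent derivatives, and other ligands were lower. The calls covered 12 of the 53 members, 7 higher and 5 lower, where 13.5% of all genes were called. The median difference over the members was 0.25, against 0.01 over all genes. Of the 11 plexins and neuropilins, 5 were higher and 0 lower, with a median of 0.84. Of the 6 secreted semaphorins, 2 were higher and 2 lower. Of the 9 Eph receptors and the 4 slits and Robos, 0 were called, while 1 of 7 ephrins, 1 of 12 membrane semaphorins and 1 of 4 netrin genes were lower. All 12 calls rested on both parental libraries together. Without either they were lost, as were most calls over all genes, although the members' directions held. Over all fits without 1 library, SEMA3E, with the smallest difference of the 12, ranged from -0.63 to -0.53 on the log2 scale.

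The neuropilin NRP1, which binds SEMA3A and also VEGF, stood at 10292 and 10318 in the parental libraries in MLM and at 14689, 18321 and 22800.5 (lowest, median, highest) in the 6 LCC libraries. The groups did not overlap, and the difference was 0.80 ± 0.16 (limma adjusted p = 0.0181). PLXNB2, a receptor of SEMA4C, stood at 3734 and 3826 in parental and at 5792, 6882 and 7767 in LCC libraries. All LCC libraries were above both parental ones, by 0.84 ± 0.11 (limma adjusted p = 0.00277). PLXNB1, the receptor of SEMA4D, stood at 179.9 and 169 in parental and at 250.4, 469.5 and 637 in LCC libraries. The difference was 1.27 ± 0.31 (limma adjusted p = 0.0318), and without LCC1 or without LCC5 it was not called. PLXNB3, a receptor of SEMA5A, stood at 393 and 370.0 in parental and at 523, 724 and 818 in LCC libraries, 0.86 ± 0.15 higher (limma adjusted p = 0.0109). PLXNA1, a partner of neuropilins, stood at 6337 and 6278 in parental and at 8338, 10853 and 13221 in LCC libraries. It was 0.75 ± 0.16 higher with no overlap (limma adjusted p = 0.0229), and without LCC5 it was not called. The 20 nearest tested genes around PLXNA1 had a median of 0.29 with 7 called in the same direction, and those around NRP1 a median of 0.08 with 1.

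Among the secreted semaphorins in MLM, SEMA3A, the ligand that repels through NRP1 and A-type plexins, stood at 1884 and 1847 in parental and at 2839.8, 3069 and 3520.3 in LCC libraries. The groups were apart, and the difference was 0.74 ± 0.10 (limma adjusted p = 0.00311). SEMA3F, which signals mainly through NRP2, stood at 184 and 193 in parental and at 362, 722 and 951 in LCC libraries, 1.74 ± 0.40 higher (limma adjusted p = 0.0261). SEMA3C, a ligand of both neuropilins, went the other way and further. It stood at 2682 and 2701 in the parental libraries and at 1.23, 36.9 and 143 in the LCC libraries, a difference of -6.39 ± 1.37 (limma adjusted p = 0.0207). The LCC libraries spread widely and still lay below both parental ones. SEMA3E, the ligand of PLXND1, was lower by a smaller amount, -0.58 ± 0.15 (limma adjusted p = 0.0392), from 339.9 and 363 in parental to 195, 241 and 278 in LCC libraries. Its call was lost with 1 fit over both media and without any 1 of LCC1, LCC3 and LCC5.

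The other 3 members lower in MLM were SEMA4G, EFNA3 and NTN1. SEMA4G, a membrane semaphorin, stood at 215 and 203 in parental and at 109.5, 115 and 127 in LCC libraries, a difference of -0.85 ± 0.12 (limma adjusted p = 0.00463). The LCC values lay close together and below both parental ones. EFNA3, a membrane-anchored ephrin, stood at 159 and 179.6 in parental and at 62.8, 73.6 and 99.7 in LCC libraries, -1.15 ± 0.21 (limma adjusted p = 0.0114). NTN1, the ligand of DCC and UNC5 receptors, stood at 60.9 and 55.4 in parental and at 4.56, 9.54 and 29.8 in LCC libraries, -2.33 ± 0.58 (limma adjusted p = 0.0338). The 20 genes around NTN1 had a median of -0.43, with 9 called lower. The NTN1 call was lost with 1 fit over both media and without LCC1 or LCC3.

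**Figure D2:**
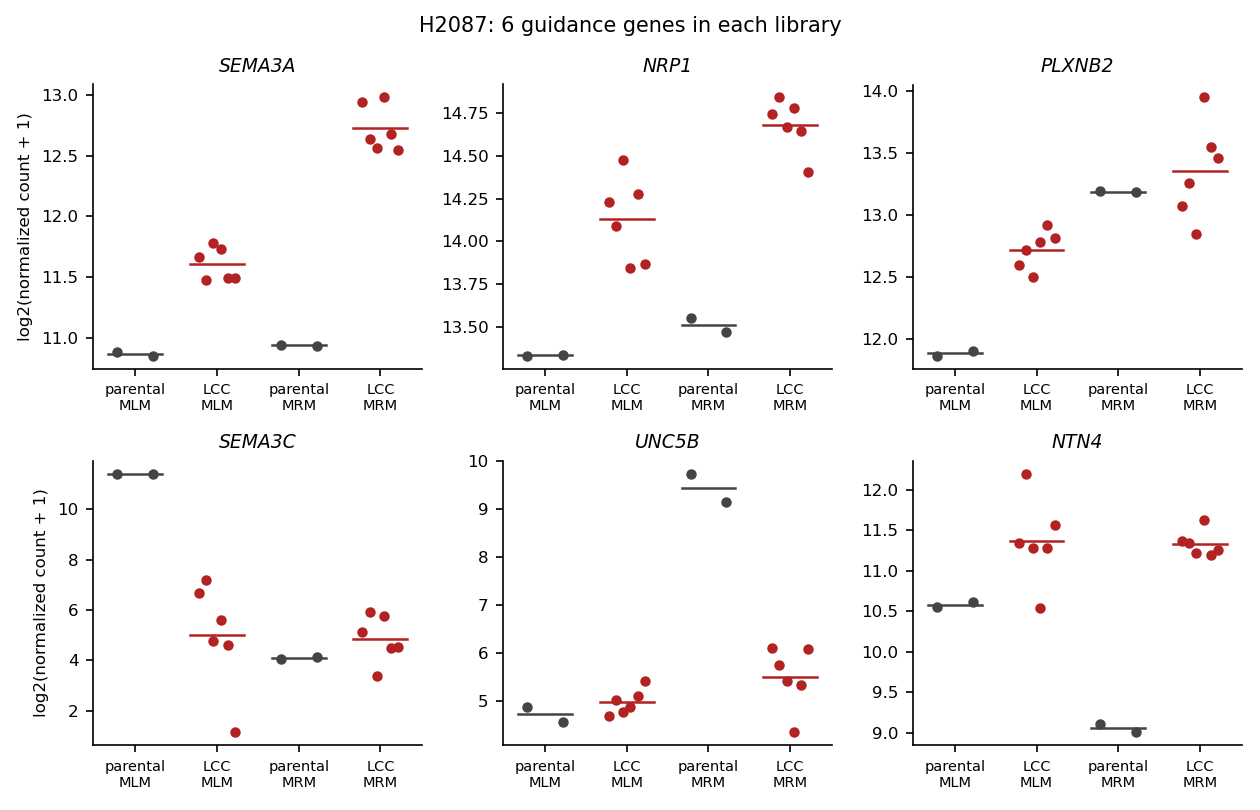
log2(normalized count + 1) of 6 members (y axis) in each H2087 library (points) by group (x axis), with the group mean as a line, parental in dark grey and LCC in red. SEMA3A and NRP1 sit above parental in both media, SEMA3C is high in the MLM parental libraries alone (2682 and 2701), and UNC5B in the MRM parental libraries alone (849 and 567).

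In H2087 grown in MRM, SEMA3A and NRP1 were again higher in LCC cells, together with a netrin, an ephrin, an Eph receptor and 2 membrane semaphorins, and the UNC5 receptors were lower. The calls covered 11 of 53 members, 8 higher and 3 lower, where 14.4% of all genes were called. The median over the members was -0.004 (all genes -0.002). The members called in the same direction in both media were NRP1, SEMA3A and SEMA4G, and 0 members were called in opposite directions. Calls shared by both media were not counted over all genes. Leaving out either parental library leaves 1 in the group. Part of the members' calls was then lost, as were most calls over all genes. Leaving out LCC6 left all 11, with 1487 genes called over all genes, against 1807 with every library.

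SEMA3A stood at 1967 and 1947 in parental MRM libraries and at 5991, 6467 and 8071 in LCC libraries, 1.79 ± 0.13 higher (limma adjusted p = 0.000322). NRP1 stood at 11968 and 11327 in parental and at 21742, 26736 and 29385 in LCC libraries, 1.17 ± 0.12 higher (limma adjusted p = 0.00131). Both genes were above parental in every LCC library and stayed called without any 1 library. SEMA7A, a GPI-anchored ligand of PLXNC1 and of integrins, stood at 2307 and 2406 in parental and at 4691, 7002 and 9333 in LCC libraries, 1.49 ± 0.24 higher (limma adjusted p = 0.00693). SEMA4B, a membrane semaphorin, was higher by 1.00 ± 0.19 (limma adjusted p = 0.0124), from 24323 and 24514 to 35460.0, 51544 and 57999.5. The 20 genes around SEMA4B had a median of 0.55, with 7 called higher. PLXNA3 stood at 397 and 439.6 in parental and at 745, 906 and 1339 in LCC libraries, 1.17 ± 0.21 higher (limma adjusted p = 0.0109). SEMA4G fell by 0.68 on the log2 scale (SE 0.16; limma adjusted p = 0.0267), from 435 and 425 to 226, 269 and 320.5. The calls of SEMA7A, SEMA4B, PLXNA3 and SEMA4G were lost without either parental library, and that of SEMA4G also without LCC5.

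NTN4, a netrin of basement membranes, had the smallest adjusted p of the members in this contrast. It stood at 550.3 and 515 in parental and at 2342, 2519 and 3149 in LCC libraries, 2.27 ± 0.12 higher (limma adjusted p = 8.03e-05). EFNB2, a transmembrane ephrin and ligand of EPHB4, stood at 612 and 681 in parental and at 1843, 2416 and 2788 in LCC libraries, 1.82 ± 0.17 higher (limma adjusted p = 0.000931). Neither gene overlapped between the groups. EPHB1, an Eph receptor, stood at 372 and 435 in parental and at 1011, 1380.4 and 1809 in LCC libraries, 1.79 ± 0.22 higher (limma adjusted p = 0.00261), a call lost without parental library 1. UNC5B, a netrin receptor that can trigger cell death when unbound, stood at 849 and 567 in parental and at 19.5, 47.3 and 68.2 in LCC libraries. It was -3.93 ± 0.45 lower with no overlap (limma adjusted p = 0.00195), and stayed called without any 1 library. UNC5A was lower by -1.88 ± 0.45 (limma adjusted p = 0.028), from 52.2 and 73.3 to 7.74, 17.1 and 25.4, a call lost without either parental library.

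In HCC1954 the derivatives had a different set of changes: NRP2, NTN1, SEMA3B, SEMA7A, SLIT2 and SLIT3 were higher in both media, and NRP1, EFNA4, EFNA5, EPHB2 and EPHB4 lower. SLIT1, EFNA1, EFNA3, EPHB3 and EPHB6 were not called in either medium. In MLM 27 of 59 members were called, 12 higher and 15 lower, where 35.9% of all genes were called. In MRM 29 were called, 16 higher and 13 lower, where 38.7% of all genes were called. The median over the members was -0.41 in MLM and 0.04 in MRM, against 0.0003 and -0.003 over all genes. A total of 11 members were higher and 10 lower in both media, and 0 were called in opposite directions. Calls shared by both media were not counted over all genes, so these counts are not read as a trait of the members. By role, in MLM, 4 of 6 slits and Robos were higher and 0 lower, 4 of 9 Eph receptors lower and 1 higher, and 2 of 8 ephrins lower and 0 higher. In MRM the same roles gave 3 higher and 0 lower, 3 lower and 1 higher, and 3 lower and 1 higher. SLIT2, SLIT3, ROBO4 and UNC5C had parental means under 10 in both media and passed the filter through their LCC libraries (means of 23.5 to 73.6). SEMA5B passed it through parental MLM alone (mean 76.2). The direction of these genes was thus set by the filter, and their calls and p-values are a description and not support. Averaging the libraries of each derivative, which leaves 2 LCC values, gave 19 calls in MLM and 32 in MRM, where 2573 and 5932 of 15397 genes were called. Each parental library left out in turn left 15 to 17 calls in MRM, with 3663 to 3713 over all genes. Leaving out LCC1 2 in MRM gave 34 calls, 27 of them among the 29, with 7469 over all genes. Leaving out parental 3 in MLM gave 27, of which 25 were among the 27, with 5166 over all genes.

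Among the semaphorin receptors, NRP1 stood at 8554, 8434 and 9868 in the parental MLM libraries and at 1800.4, 1965, 1719 and 1730.0 in the LCC libraries (LCC1 1, LCC1 2, LCC2 1 and LCC2 2, an order kept below). The difference was -2.31 ± 0.09 (limma adjusted p = 3.85e-05). In MRM it stood at 8453, 7976 and 8537 in parental and at 2574, 2278, 2358 and 2342 in LCC libraries, -1.80 ± 0.08 (limma adjusted p = 1.91e-05). Both derivatives were low to a like extent, with no overlap in either medium. The 20 genes around NRP1 had a median of -0.89 in MLM and -0.82 in MRM, with 13 and 14 of them called lower. NRP2, the other neuropilin, went the opposite way. It stood at 32.4, 19.5 and 61.3 in parental and at 398, 368, 538 and 531 in LCC libraries in MLM, 3.70 ± 0.37 higher (limma adjusted p = 0.000457). In MRM it stood at 80.7, 73.7 and 79.3 in parental and at 439, 261, 644 and 615 in LCC libraries, 2.55 ± 0.31 higher (limma adjusted p = 0.00089). The 20 genes around NRP2, whose promoter is printed above, had medians of 0.07 and 0.12.

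PLXNB2 stood at 11806, 12639.9 and 10576 in parental and at 28845, 28444, 23443 and 23214 in LCC libraries in MLM, 1.15 ± 0.12 higher (limma adjusted p = 0.00055). In MRM it stood at 10928, 11143 and 10083 in parental and at 24229.6, 17942, 20769 and 19624 in LCC libraries, 0.94 ± 0.12 higher (limma adjusted p = 0.00097). Its surroundings moved with it. All 20 neighbouring tested genes on chromosome 22, from ALG12 to KLHDC7B, had a positive difference in both media, with medians of 1.56 and 1.32 and with 19 and 17 called higher. PLXNC1, the receptor of SEMA7A, rose from 13, 19.5 and 17 to 38.1, 35.9, 43.4 and 42.5 in MLM (1.25 ± 0.22, limma adjusted p = 0.00499). In MRM it was 0.98 ± 0.25 higher (limma adjusted p = 0.018), from 33.6, 35.4 and 31.7 to 72.9, 43.8, 80.3 and 78.4. The MLM call was lost with LCC libraries averaged per derivative and the MRM call without any 1 parental library. PLXNA1 and PLXNB3 were lower in both media. PLXNA1 stood at 13422, 15161 and 9173 in parental and at 7804, 7428, 7688 and 7677 in LCC libraries in MLM, and at 7275, 7501 and 6945 against 6110.1, 4457, 5290.2 and 4917 in MRM. The groups were apart in both media, by -0.69 ± 0.16 and -0.49 ± 0.12 (limma adjusted p = 0.0151 and 0.0138), and both calls were lost without parental 1 or parental 2. PLXNB3 stood at 2072, 2391 and 1479.9 in parental and at 1378, 1376, 1254 and 1228 in LCC libraries in MLM, and at 1928, 2029 and 1803 against 905, 834, 1072 and 914 in MRM. It differed by -0.57 ± 0.16 and -1.05 ± 0.11 (limma adjusted p = 0.0294 and 0.000464), and its MLM call was lost with no filter, with equal totals, with LCC libraries averaged per derivative, and without any 1 of parental 1, parental 2, LCC1 1, LCC2 1 and LCC2 2. In MRM alone by the calls, PLXND1 was higher by 1.27 ± 0.27 and PLXNA3 lower by -0.62 ± 0.09 (limma adjusted p = 0.00857 and 0.0023). PLXNA3 stood at 2196, 2351 and 2074 in parental and at 1374, 1566, 1500.1 and 1316 in LCC libraries there.

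**Figure D3:**
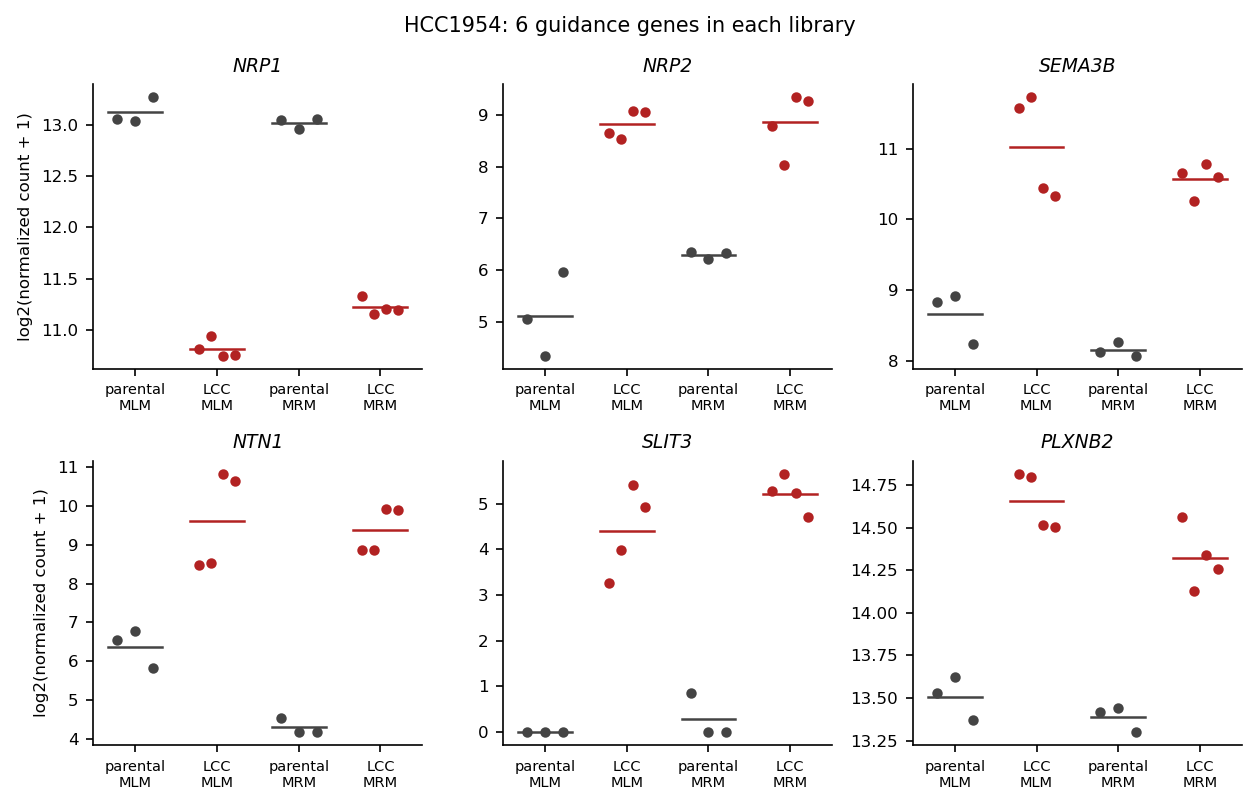
log2(normalized count + 1) of 6 members (y axis) in each HCC1954 library (points) by group (x axis), with the group mean as a line, parental in dark grey and LCC in red; within LCC the points are LCC1 1, LCC1 2, LCC2 1 and LCC2 2 from left to right. NRP1 falls and NRP2 rises with no overlap, and SLIT3 is listed at 0 in the 3 parental MLM libraries.

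Of the ligands, SEMA3B, a secreted semaphorin known as a growth-suppressing gene in lung and breast cells, stood at 455, 480.2 and 299.9 in parental and at 3058, 3398, 1388 and 1293 in LCC libraries in MLM. It was 2.36 ± 0.39 higher there (limma adjusted p = 0.00354) and 2.43 ± 0.14 higher in MRM (limma adjusted p = 6.4e-05), from 277, 305 and 268 to 1616, 1221, 1769 and 1559.5. SEMA7A rose from 177, 142 and 169.5 to 935, 916, 566 and 506 in MLM (2.11 ± 0.25, limma adjusted p = 0.000956). In MRM it rose from 80.7, 90.0 and 77.3 to 524, 1127, 208 and 167 (2.18 ± 0.62, limma adjusted p = 0.0279), with the LCC1 libraries above the LCC2 ones. Without LCC1 1 or any 1 parental library the MRM call of SEMA7A was lost. SEMA3E fell by 1.84 and 1.13 on the log2 scale in MLM and MRM (SE 0.13 and 0.25; limma adjusted p = 0.000152 and 0.00981). Its values went from 986, 936 and 899.7 to 302, 275, 251 and 226 in MLM, and from 588, 575 and 619 to 412, 185, 273 and 254 in MRM. SEMA4C, the ligand of PLXNB2, stood at 2345, 2571 and 2076 in parental and at 1444, 1401, 1495 and 1477 in LCC libraries in MLM, and at 2005, 2099 and 1893 against 1486, 899, 1416 and 1325 in MRM. It differed by -0.68 ± 0.09 and -0.67 ± 0.18 (limma adjusted p = 0.00175 and 0.0213), and the MRM call was lost with equal totals and without any 1 parental library.

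Other semaphorins were called in 1 medium. In MLM, SEMA3F stood at 7469, 7936 and 4029 in parental and at 791, 655, 2103 and 2189 in LCC libraries, -2.32 ± 0.50 (limma adjusted p = 0.00997). SEMA3A stood at 269, 209 and 518 in parental and at 117, 111, 34.3 and 35.5 in LCC libraries, -2.27 ± 0.55 (limma adjusted p = 0.0169), a call lost with LCC libraries averaged per derivative and without parental 1 or parental 3. In MRM, SEMA3A was at 371, 342 and 379 in parental and at 106, 431, 21.8 and 39.2 in LCC libraries, so LCC1 2 lay above every parental library and the gene was not called. SEMA5B was -2.78 ± 0.39 lower in MLM (limma adjusted p = 0.00181). SEMA3C in MRM rose from 457, 440.3 and 438 to 757, 1111, 1034 and 1020.1 (1.12 ± 0.14, limma adjusted p = 0.00106). SEMA4F (0.40 ± 0.10) and SEMA5A (1.82 ± 0.61) were also higher in MRM (limma adjusted p = 0.0159 and 0.048), and SEMA5A lost its call without either LCC1 library or any 1 parental library, with a pseudocount of 5, with no filter and with LCC libraries averaged per derivative.

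Of the netrin and slit genes, NTN1, SLIT2 and SLIT3 were higher in both media. NTN1 stood at 91.9, 108 and 56.1 in parental and at 355, 369, 1796 and 1596 in LCC libraries in MLM, 3.23 ± 0.66 higher (limma adjusted p = 0.0082). In MRM it stood at 22.4, 17.2 and 17.2 in parental and at 466, 459, 968 and 938 in LCC libraries, 5.07 ± 0.32 higher (limma adjusted p = 8.31e-05). LCC2 libraries lay above LCC1 libraries in both media, and all lay above parental. NTN4 went down, from 10119.5, 10449 and 8534 to 4766, 4654, 5739.8 and 5569.9 in MLM and from 9077, 9082 and 9001 to 5102, 3065, 5727 and 5745 in MRM. The differences were -0.90 ± 0.12 and -0.93 ± 0.22 (limma adjusted p = 0.00125 and 0.0136), and the MRM call was lost without any 1 parental library. SLIT3, a secreted ligand of Robo receptors, was at 0 in the 3 parental MLM libraries and at 8.6, 14.8, 41.2 and 29.4 in LCC libraries. With 84 reads in LCC and 0 in parental libraries it was at least 19.0-fold higher, taking 3 reads over the parental group as the floor. In MRM it was at 0.799, 0 and 0 in parental and at 38, 49.2, 36.7 and 25 in LCC libraries. That is 179 reads against 1, a ratio of 137 with an exact 95% counting interval of 24.4 to 5459, which covers counting error only. The limma adjusted p of SLIT3 was 0.00104 in MLM and 0.000116 in MRM.

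SLIT2 rose in both media, by 3.66 ± 0.63 and 3.09 ± 0.75 (limma adjusted p = 0.00419 and 0.0154), from 5.18, 0 and 2.61 to 47.9, 45.8, 27.4 and 23.3 in MLM and from 5.59, 7.66 and 2.76 to 61.6, 186, 19.2 and 27.7 in MRM. The MRM call was lost without parental 1 or parental 3. ROBO3, a Robo receptor that in mammals does not bind slits directly, stood at 54.4, 58.4 and 69.1 in parental and at 322, 344, 187 and 213 in LCC libraries in MLM. It was 2.08 ± 0.25 higher (limma adjusted p = 0.00103), and 1.42 ± 0.35 higher in MRM (limma adjusted p = 0.0167), from 92.7, 103 and 86.2 to 307, 455, 179 and 164, a call lost without any 1 parental library. ROBO4, a Robo best known from endothelium, was at 0, 0 and 1.3 in parental and at 77.4, 90.3, 5.72 and 4.05 in LCC libraries in MLM (limma adjusted p = 0.0284). With 145 reads against 1 the ratio was 98.3, with an exact counting interval of 17.4 to 3908, and the LCC1 libraries carried most of it. The 6 endothelial markers, 4 of them with a mean of at least 10, summed to 683 to 1101 in parental and to 831 to 1442 in LCC libraries of MLM. Their part in the ROBO4 value was not tested. UNC5C, a netrin receptor, was 1.97 ± 0.46 and 2.88 ± 0.90 higher (limma adjusted p = 0.0137 and 0.0386), from 5.18, 9.73 and 6.52 to 22.1, 16.1, 52.6 and 43.6 in MLM and from 5.59, 1.91 and 8.28 to 12.3, 16.4, 107 and 116 in MRM. LCC2 libraries held most of it. Both UNC5C calls were lost with LCC libraries averaged per derivative, and the MRM call also without any 1 parental or LCC2 library.

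Ephrins and Eph receptors were mostly lower where called. EFNA5, an anchored ligand of EphA receptors, stood at 1673, 1537 and 1805 in parental and at 639.8, 591, 693 and 681 in LCC libraries in MLM, -1.36 ± 0.10 (limma adjusted p = 0.000186). In MRM it stood at 2201, 2153 and 2193 in parental and at 599, 560.2, 1137 and 1119 in LCC libraries, -1.43 ± 0.28 (limma adjusted p = 0.00615). EFNA4 stood at 974, 1043 and 831 in parental and at 413, 370.0, 351 and 327 in LCC libraries in MLM, and at 815, 756 and 775 against 329, 256, 386 and 358 in MRM, differences of -1.37 ± 0.13 and -1.25 ± 0.15 (limma adjusted p = 0.000383 and 0.000907). EPHB4, the receptor of EFNB2, stood at 9704, 10420.0 and 9792 in parental and at 4803, 4659, 5057 and 5035 in LCC libraries in MLM, -1.03 ± 0.07 (limma adjusted p = 0.000164), and at 6606, 6459 and 5862 against 3396, 2729, 3342 and 3316 in MRM, -0.98 ± 0.10 (limma adjusted p = 0.000518). EPHB2 stood at 2577, 2654 and 2539 in parental and at 1471, 1486, 1320.3 and 1389.7 in LCC libraries in MLM, and at 2288, 2273 and 2188 against 1362, 1059.5, 1205 and 1228 in MRM. The differences were -0.87 ± 0.08 and -0.90 ± 0.10 (limma adjusted p = 0.000356 and 0.000676), with 10 and 11 of its 20 neighbours also called lower. In MRM, 11 of the 20 neighbours of EPHB4 were called lower. EPHA10, an Eph receptor without kinase activity, was the exception. It rose from 312, 329 and 280.3 to 556, 567, 479 and 448 in MLM and from 149, 168 and 127 to 237, 292, 230.4 and 195 in MRM, 0.73 ± 0.13 and 0.68 ± 0.18 higher (limma adjusted p = 0.00492 and 0.0199), the MRM call being lost without parental 1 or parental 3. EPHA1 and EPHA4 were lower in MLM alone by the calls, EFNA2 and EPHB1 lower and EFNB1 higher in MRM alone. The EPHB1 call (-0.84 ± 0.24, limma adjusted p = 0.0281) was lost with equal totals, with 1 fit over both media and without any 1 parental library.

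Between the lines, 13 members were called in both in at least 1 medium, 10 in opposite directions and 3 in the same. PLXNB2 and SEMA7A were higher and SEMA3E lower in the derivatives of both lines. NRP1, SEMA3A, SEMA3F, PLXNA1, PLXNA3, PLXNB3, NTN4 and EPHB1 were higher in H2087 LCC and lower in HCC1954 LCC cells. NTN1 was lower in H2087 LCC cells in MLM and higher in HCC1954 LCC cells. SEMA3C was lower in H2087 LCC cells in MLM and higher in HCC1954 LCC cells in MRM, so its opposite calls come from different media. Within MLM its LCC mean lay below the parental mean in both lines (57.4 against 2691 in H2087, 1044 against 1415 in HCC1954). Within MRM it lay above in both (33.3 against 16.2, and 981 against 445). Within MLM, 6 of 8 members called in both lines were opposite, and 4 of 5 within MRM. Over all genes called in both lines the opposite share was 60.2% in MLM (387 of 643) and 63.2% in MRM (461 of 729), so the members' shares of 75% and 80% rest on few genes near the background.

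Levels between lines are a description, as CPM (reads scaled to a common library total) over the 18075 genes that both lines' tables share, with lines normalized apart. Of 52 members, 8 were above in every H2087 library, 4 above in every HCC1954 library, and 40 overlapped. The same count over the 18075 shared genes was not made, so these numbers are not read as a trait of the members. The 8 were EPHB1, NRP1, NRP2, PLXNC1, SEMA3A, SEMA3G, SEMA4B and SEMA7A, and the 4 were EFNA3, EFNB1, EPHB6 and PLXNB1. SEMA3A ran from 67.1 to 258 CPM in H2087 and from 0.844 to 16.6 in HCC1954. NRP2 ran from 77.9 to 392 CPM in H2087 and from 0.622 to 24.9 in HCC1954, so its rise in the HCC1954 derivatives stayed below every H2087 library.

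**Figure D4:**
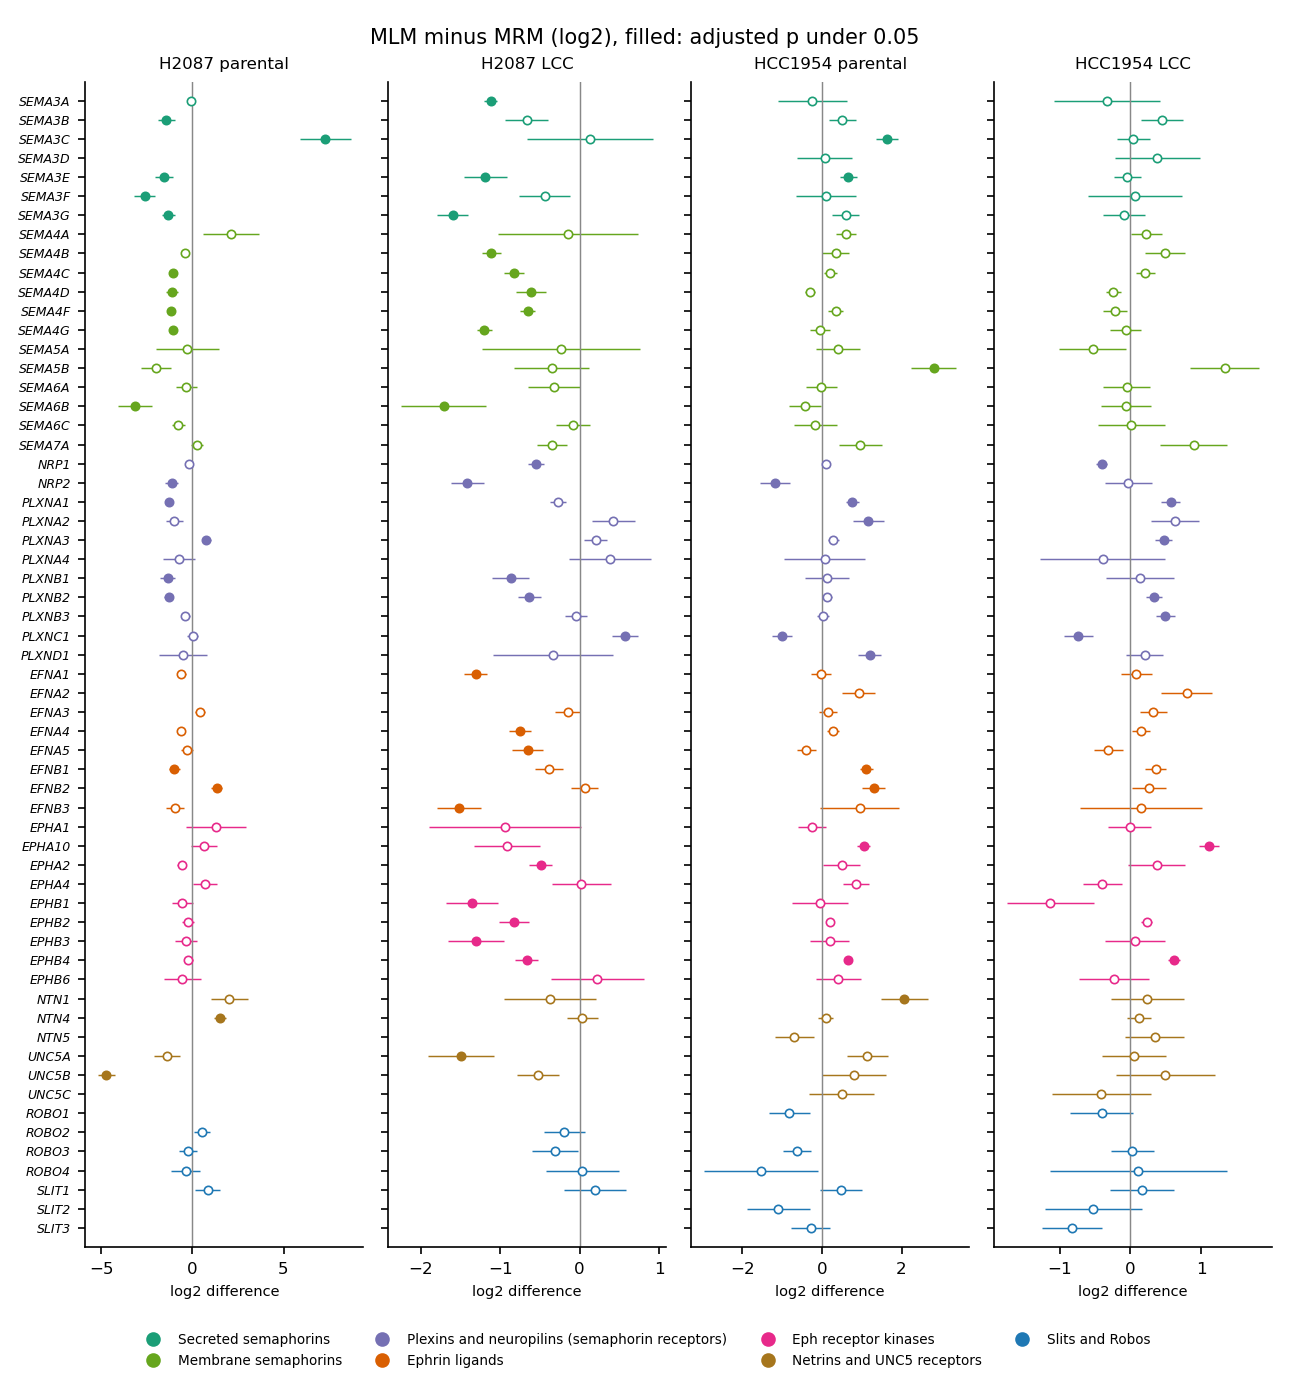
Log2 difference of MLM minus MRM (x axis, points with SE bars) for every member (y axis, coloured by role) in parental and LCC cells of each line, filled where the adjusted p is under 0.05. The filled points lie mostly to the left in H2087 (15 of 19 in parental and 23 of 24 in LCC cells) and mostly to the right in HCC1954 (11 of 13 and 6 of 8). The x axes differ between panels.

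The media contrasts use the same libraries as the LCC contrasts, so they are given side by side with no test between them. Of the members called, most were lower in MLM than in MRM in H2087 and most were higher in HCC1954, while 34 and 29 of 53 were not called in H2087 parental and LCC cells. In H2087 parental cells 4 members were higher and 15 lower in MLM, where 38% of all genes were called (20.1% higher and 17.9% lower). In H2087 LCC cells 1 was higher and 23 lower, where 37.4% of all genes were called (18.5% higher and 18.9% lower). The members' medians were -0.53 and -0.49, against 0.04 and 0.01 over all genes. With each derivative or same-named library paired over the media, the parental count was 33 (8 higher, 25 lower) and the LCC count 30 (2 higher, 28 lower). Over all genes, 6774 and 6540 of 12535 were then called. In HCC1954 11 were higher and 2 lower in parental cells, where 24.6% of all genes were called, and 6 higher and 2 lower in LCC cells, where 23% were. Paired by name, the HCC1954 LCC count was 16 (13 higher, 3 lower), where 5720 of 15397 genes were called. Depth was lower in MRM in H2087 and higher in MRM in HCC1954, and its part in these differences was not tested. In H2087 parental cells 7 neuron markers summed to 2663 to 2730.2 in MLM and 5866 to 6582 in MRM, and the 3 lung markers present to 208 to 215 and 3564 to 3882. Of these, 3 neuron and 2 lung markers had a mean of at least 10 in each medium. Their part was not tested either.

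In H2087 parental cells SEMA3C stood at 2682 and 2701 in MLM and at 15.8 and 16.5 in MRM, 7.29 ± 1.38 higher in MLM (limma adjusted p = 0.000887). NTN4 (1.53 ± 0.33), EFNB2 (1.33 ± 0.30) and PLXNA3 (0.77 ± 0.25) were also higher (limma adjusted p = 0.00239, 0.00295 and 0.0254). UNC5B stood at 28.6 and 22.8 in MLM and at 849 and 567 in MRM, -4.71 ± 0.46 (limma adjusted p = 5.13e-06). SEMA6B, a membrane ligand of A-type plexins, stood at 189 and 194 in MLM and at 1627 and 1796 in MRM, -3.15 ± 0.93 (limma adjusted p = 0.0157). SEMA3F differed by -2.62 ± 0.56 and SEMA3E by -1.55 ± 0.47 (limma adjusted p = 0.00229 and 0.0177). The calls of PLXNA3, SEMA6B and SEMA3E were lost without any 1 of the 4 parental libraries. PLXNA1, PLXNB1 and PLXNB2, which were higher in LCC cells in MLM, were lower in MLM in the parental cells, by -1.27 ± 0.18, -1.35 ± 0.40 and -1.30 ± 0.25 (limma adjusted p = 0.000102, 0.0166 and 0.000927). The 20 neighbours of PLXNA1 had a median of -0.74 there, with 12 called lower.

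In H2087 LCC cells the genes lower in MLM came from every role but slits and Robos: 3 of 6 secreted and 6 of 12 membrane semaphorins, 4 of 11 plexins and neuropilins, 4 of 7 ephrins, 5 of 9 Eph receptors and 1 of 4 netrin genes. SEMA3G, a secreted semaphorin that binds NRP2, stood at 59.7, 106 and 123 (lowest, median, highest) in MLM and at 206, 296 and 344 in MRM, -1.60 ± 0.19 (limma adjusted p = 2.01e-05). The groups did not overlap. EFNB3 (-1.52 ± 0.28), SEMA6B (-1.71 ± 0.54) and UNC5A (-1.49 ± 0.42) had like differences (limma adjusted p = 0.000589, 0.0213 and 0.0115), with overlap in SEMA6B and UNC5A. SEMA3A was -1.12 ± 0.08 lower and SEMA4G -1.20 ± 0.09 lower (limma adjusted p = 3.71e-07 and 5.04e-07). PLXNC1 was the 1 member higher in MLM, by 0.57 ± 0.16 (limma adjusted p = 0.0126), with overlapping groups. Without LCC6 in MRM or in MLM the count was 24 or 25, with 4243 or 4421 over all genes.

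In HCC1954 parental cells SEMA5B, a membrane semaphorin that binds plexins, stood at 72.5, 114 and 41.7 in MLM and at 8.79, 10.5 and 8.28 in MRM, 2.81 ± 0.57 higher (limma adjusted p = 0.00405). It passed the filter through parental MLM alone, so this direction was set by the filter and its call is a description and not support. SEMA3C stood at 1659, 1590.2 and 996 in MLM and at 457, 440.3 and 438 in MRM, 1.63 ± 0.27 higher (limma adjusted p = 0.00123). NTN1 (2.07 ± 0.60) and EFNB2 (1.30 ± 0.28) were higher too (limma adjusted p = 0.0244 and 0.00579), so SEMA3C and EFNB2 were higher in MLM in the parental cells of both lines. NRP2 fell by 1.18 (SE 0.38) and PLXNC1 fell by 1.00 (SE 0.24) on the log2 scale (limma adjusted p = 0.0413 and 0.0108). The calls of NTN1 and NRP2 were lost without parental 1 or 2 in MLM or any 1 parental library in MRM, and NRP2 was not called by edgeR. In HCC1954 LCC cells EPHA10 (1.11 ± 0.14), EPHB4 (0.62 ± 0.08), PLXNA1 (0.57 ± 0.14) and PLXNB3 (0.49 ± 0.13) were higher in MLM (limma adjusted p = 0.000269, 0.000294, 0.0104 and 0.017). PLXNC1 (-0.73 ± 0.21) and NRP1 (-0.41 ± 0.08) were lower (limma adjusted p = 0.0247 and 0.00254). PLXNC1 was thus lower in MLM in both kinds of HCC1954 cells and higher in H2087 LCC cells. Plexins and neuropilins made up 6 of the 8 calls, and secreted semaphorins, membrane semaphorins and ephrins 0.

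Whether the LCC effect itself differed between media was tested as a difference of differences. In H2087 7 members were called, 3 with a more positive LCC effect in MLM and 4 with a more negative one, where 10.7% of all genes were called. UNC5B (4.19 ± 0.53), SEMA3F (2.18 ± 0.65) and PLXNA1 (0.99 ± 0.21) had the more positive effect in MLM (limma adjusted p = 0.00029, 0.0454 and 0.00847). SEMA3C (-7.16 ± 1.59), NTN4 (-1.49 ± 0.38), EFNB2 (-1.27 ± 0.34) and SEMA3A (-1.05 ± 0.17) had the more negative one (limma adjusted p = 0.011, 0.0224, 0.0301 and 0.00144). For UNC5B, SEMA3C, NTN4 and EFNB2, the parental levels differed between media while the LCC levels overlapped between them: SEMA3C had LCC medians of 36.9 and 28.2 and UNC5B of 30.2 and 47.3 in MLM and MRM. For SEMA3A the parental levels were alike (1884 and 1847 against 1967 and 1947) and the LCC medians were 3069 in MLM and 6467 in MRM. UNC5B and SEMA3A stayed called without any 1 library, while NTN4, EFNB2, SEMA3C and PLXNA1 each lost the call without at least 1 parental library. SEMA3F lost it with no filter and in 11 of the 16 fits that left out 1 library, 7 of them an LCC library. With the derivatives paired over the media, 18 members were called (6 more positive, 12 more negative), all 7 among them. Over all genes, 3426 of 12535 were then called. In HCC1954 limma called 0 members, where 0.156% of all genes were called. Of the 59 members, 11 had an unadjusted limma p under 0.05, against 1540 of 15397 genes. The edgeR fit called 0 members. With same-named libraries paired over the media, 2 members were called there, both with a more negative LCC effect in MLM, and 116 over all genes.

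**Figure D5:**
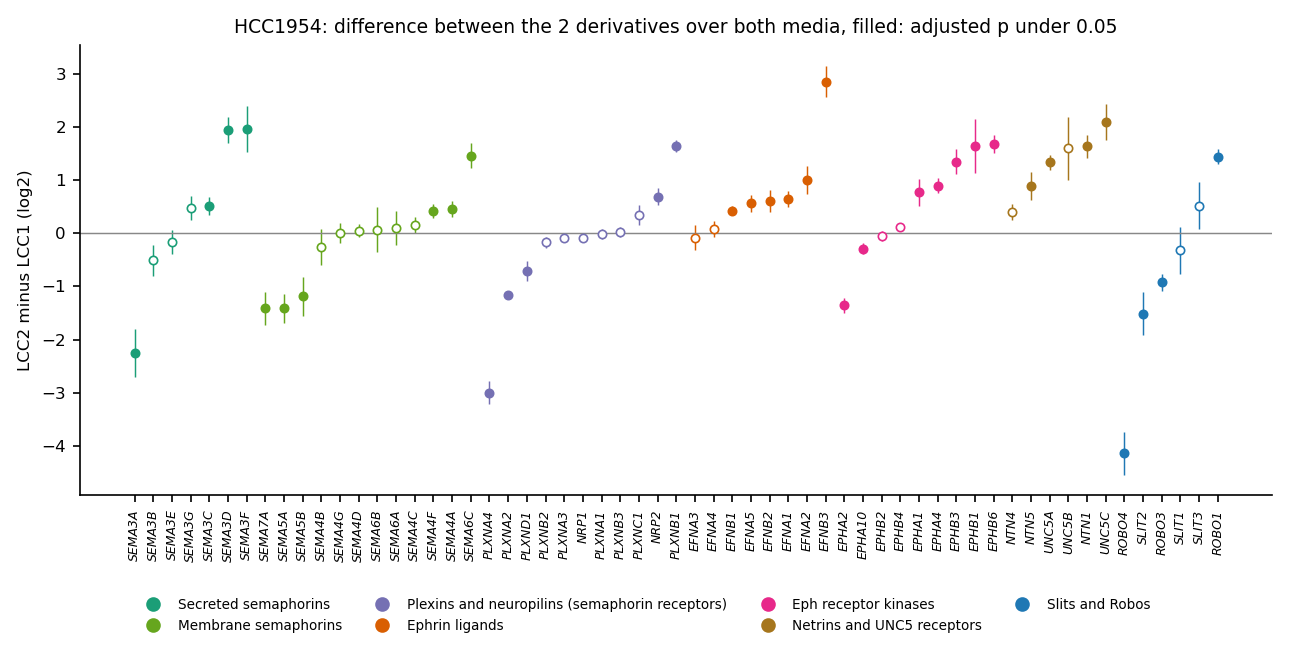
Log2 difference of LCC2 minus LCC1 in HCC1954 over both media (y axis, points with SE bars) for the 59 members (x axis, ordered by role and then by size), filled where the adjusted p is under 0.05. Ephrins and netrin genes that are filled lie above 0, and ROBO4 is lowest at -4.13.

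The derivatives of HCC1954 also differed from each other, most evenly in the ephrins and the netrin and UNC5 genes. Over both media, 24 members were higher and 12 lower in LCC2 than in LCC1, where 45.8% of all genes were called. By role, 6 of 8 ephrins and 4 of 6 netrin and UNC5 genes were higher in LCC2 and 0 lower, and 5 of 9 Eph receptors were higher and 2 lower. Of the 6 slits and Robos, 3 were lower and 1 higher. With the MRM libraries alone, where LCC1 1 and LCC1 2 differ, 10 members were called, against 1050 of 15397 genes. With the MLM libraries alone 46 were, against 10032.

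EFNB3, a transmembrane ephrin, stood at 98.2 and 59.4 in LCC1 and at 765 and 743 in LCC2 in MLM, and at 137 and 63.3 against 524 and 478 in MRM, 2.85 ± 0.29 higher (limma adjusted p = 0.000302). Parental libraries held 553, 646 and 239.9 in MLM, so LCC1 was below them. UNC5C (2.09 ± 0.34), SEMA3F (1.96 ± 0.42) and SEMA3D (1.94 ± 0.24) were also higher in LCC2 (limma adjusted p = 0.0019, 0.00709 and 0.000634). ROBO4 stood at 77.4 and 90.3 against 5.72 and 4.05 in MLM and at 48.3 and 180.5 against 4.36 and 2.7 in MRM, -4.13 ± 0.40 (limma adjusted p = 0.000247). It passed the filter through its LCC1 libraries alone, so this direction was set by the filter. PLXNA4, an A-type plexin, stood at 97 and 95.3 in LCC1 and at 10.3 and 7.09 in LCC2 in MLM, and at 88.4 and 112 against 15.7 and 14.2 in MRM. From LCC1 to LCC2 it fell by 3.00 on the log2 scale (SE 0.22; limma adjusted p = 8.5e-05). LCC2 was near the parental values of 11.7 to 27.4 for this gene in MLM. SEMA3A (-2.25 ± 0.45) and SLIT2 (-1.52 ± 0.40) were lower in LCC2 (limma adjusted p = 0.00518 and 0.0164). Of these 8 genes, UNC5C and PLXNA4 stayed called with the MRM libraries alone, and SLIT2 lost its call without LCC2 1 in MRM.

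The other genes of these pathways were taken from lists of 17 co-receptors and cofactors and 53 intracellular effectors, of which 13 and 49 were kept in H2087 and 14 and 49 in HCC1954. In H2087 MLM 1 co-receptor and 4 effectors were lower and 1 effector higher in LCC cells. That was 7.69% of co-receptors and 10.2% of effectors called, against 13.5% of all genes. FLRT2, an adhesion protein that binds UNC5 receptors, differed by -7.15 ± 0.61 and CHN1, a Rac GTPase-activating protein downstream of Eph receptors, by -3.54 ± 0.53 (limma adjusted p = 0.000561 and 0.00523). FLRT2 had a line mean of 26.1 and in parental cells was 7.67 ± 0.92 higher in MLM than in MRM. It thus passed the filter through its parental MLM libraries, which set its direction, and its call is a description and not support. In H2087 MRM 5 effectors and 2 co-receptors were higher and 1 co-receptor lower. There 10.2% of effectors and 23.1% of co-receptors were called, against 14.4% of all genes. Among those higher were SRGAP1, a slit-Robo GTPase-activating protein, by 1.28 ± 0.12, and FLRT3 by 3.13 ± 0.84 (limma adjusted p = 0.00105 and 0.0416). In HCC1954 3 of 14 co-receptors were higher and 6 lower in MLM (64.3% called, against 35.9% of all genes), and 4 and 6 in MRM (71.4% against 38.7%). There 8 of 49 effectors were higher and 14 lower in MLM (44.9% called), and 7 and 14 in MRM (42.9%). CRMP1, which relays SEMA3A signals, was 3.20 ± 0.35 and 3.95 ± 0.29 higher in MLM and MRM (limma adjusted p = 0.00068 and 0.000125). RND1, a small GTPase that binds plexins, was lower by -3.95 ± 0.31 and -5.35 ± 0.20 (limma adjusted p = 0.000205 and 1.24e-05), and DAPK1, a kinase that UNC5B can engage, by -2.47 ± 0.16 and -2.68 ± 0.34 (limma adjusted p = 0.000108 and 0.00109). Between media, most of the 49 effectors were not called, and most of those called were higher in MLM. In H2087 16 were higher and 1 lower in parental cells (34.7% called, against 38% of all genes), and 13 and 1 in LCC cells (28.6% against 37.4%). In HCC1954 12 were higher and 1 lower in parental cells (26.5% against 24.6%), and 15 and 2 in LCC cells (34.7% against 23%).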

How the data were processed

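The values analysed were 30 of the 31 RNA libraries; 1 H2087 parental MLM library was not analysed here, nor were 12 chromatin samples. The deposited tables hold a normalized signal, gene reads divided by a size factor that both media of a line share; whole reads were recovered for 100% of values within 0.01. Bowtie2 2.2.4, HTSeq 0.6.1p1, DESeq2 1.8.1 and hg19/GRCh37 are listed, without roles, per the submitters' processing notes; whether counting used strand is not given in the sources used here, so antisense overlap cannot be told apart.

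Genes with a line mean of at least 10 were tested with limma 3.58.1 (R 4.3.3, trend) on log2(value + 1), a scale that understates the change of low genes, with Benjamini-Hochberg adjustment over all genes kept in the line. LCC and parental cells were compared within each medium's table, media and their interaction in 1 fit per line, and LCC2 with LCC1 with medium as covariate. The test was checked on simulated data with the same spread in every gene and group. In H2087 the LCC libraries differed more from each other than the parental ones, which that check does not cover. Alternatives were edgeR 4.0.16 on recovered reads, a pseudocount of 5, no filter, equal totals, other sample sets, a replicate block and leaving out each library. Neighbours are the 10 tested genes on each side in RefSeq order. Counting intervals and floors (3 reads) cover counting error only.

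Pairing of the media was checked by the correlation of library deviations from their group means: same-named H2087 derivatives gave 0.411 to 0.756 and HCC1954 LCC libraries 0.507 to 0.698, and the labels name the same derivative, whereas parental numbers gave 0.018 to 0.116. Named members were those called with a line mean of at least 50 and groups apart (the 8 largest differences per LCC contrast), called in both media or in both lines, and the 4 largest called per direction in the other contrasts; further members given values in a clause were chosen after their values were seen. The members and lists were chosen with earlier results of these data known.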

Additional observations from a re-analysis of the deposited data

Results flagged for a closer look

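In HCC1954 LCC cells in MRM, the library LCC1 2 lay far from the other LCC libraries of its group for 2 genes. EPHB4 stood at 2729 there, against 3316 to 3396 in the others, and PLXNC1 at 43.8, against 72.9 to 80.3. A total of 69 groups of values were checked and 2 held such a library. Chance gives about 1 in 20 where all libraries of a group are drawn alike. The HCC1954 LCC groups join LCC1 and LCC2, which differed, so that rate does not hold for them.

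In H2087 the LCC effect differed between media for 7 members by the limma interaction test. The difference, the effect in MLM minus that in MRM on the log2 scale, was 4.19 for UNC5B, 2.18 for SEMA3F and 0.99 for PLXNA1. It was -7.16 for SEMA3C, -1.49 for NTN4, -1.27 for EFNB2 and -1.05 for SEMA3A.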

How the results depend on the processing

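Of 109 results for named members, 88 kept their call under every alternative that used all libraries, 66 kept it without each library in turn, and 0 changed direction. The replicate block pairs same-named libraries over the media. Members called between media then numbered 33 in H2087 parental, 22 in HCC1954 parental and 16 in HCC1954 LCC cells. Over all genes 6774, 5816 and 5720 were called. For the interaction the members numbered 18 in H2087 and 2 in HCC1954, with 3426 and 116 over all genes. The parental numbers share only a number. Fits of the 2 groups alone gave 45 in H2087 parental and 27 in HCC1954 parental cells, where 9026 of 12535 and 6915 of 15397 genes were called. LCC2 against LCC1 gave 10 with MRM libraries alone, where 1050 of 15397 genes were called. Leaving out each library in turn gave 0 to 15 members for LCC against parental in H2087 MLM, 5 to 15 in H2087 MRM, 20 to 29 in HCC1954 MLM and 15 to 34 in HCC1954 MRM. Between media it gave 11 in every case in H2087 parental, 24 to 27 in H2087 LCC, 9 to 13 in HCC1954 parental and 6 to 10 in HCC1954 LCC cells. The interaction gave 6 to 8 in H2087 without each LCC library, with 1066 to 1622 over all genes. In HCC1954 it gave 0, with 0 to 50 over all genes. LCC2 against LCC1 gave 25 to 43, with 5526 to 8516 over all genes. Calls over all genes thus moved as well. The cause was not tested. Equal totals moved every difference by 0.12 in HCC1954 MLM, 0.13 in HCC1954 MRM and 0.14 for LCC2 against LCC1. With 2 parental libraries per medium in H2087, and SLIT2, SLIT3, ROBO4 and UNC5C at few reads, precision is limited there.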

Other observations

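Among the 6 H2087 derivatives, 3 members that passed no test against the parental cells, chosen after their values were seen, were high in 1 or 2 derivatives. EPHA1, an Eph receptor, stood at 685 in MLM and 2376 in MRM in LCC4. SEMA4A, a membrane semaphorin, stood at 369.6 and 633 in LCC4. PLXND1, the receptor of SEMA3E, stood at 4502 and 5118 in LCC5, at 1899 and 3986 in LCC6 and at 277 and 286 in LCC2.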
